A study of Mus musculus with 151 samples.

Results

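The 10 genes described here encode antioxidant enzymes: the superoxide dismutases Sod1 and Sod2, catalase (Cat), the glutathione peroxidases Gpx1 and Gpx4, the peroxiredoxins Prdx1 and Prdx3, the thioredoxin reductase Txnrd1, and both subunits of glutamate-cysteine ligase, Gclc and Gclm. They were chosen by name for their function, with earlier results of these data known, and are 10 of the 35976 gene names in each of the 7 count tables. All 10 were found in every table. All 10 passed the filter on low counts in the 6 tables that were tested, and Cat fell under it in the 39-week oocytes.

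Superoxide, which leaks mainly from mitochondrial respiration, is turned into hydrogen peroxide by superoxide dismutases, in the cytosol by SOD1 and in the mitochondrial matrix by SOD2. The peroxide is then removed by catalase in peroxisomes, by glutathione peroxidases at the expense of glutathione, and by peroxiredoxins, which are recycled by thioredoxin and thioredoxin reductase. In the ovary these enzymes act in oocytes, which wait in meiotic arrest for months, and in steroid-producing cells, whose cytochrome P450 reactions release oxidants.

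The study compared female mouse offspring conceived naturally (Natural) or by in vitro fertilization (IVF), and asked whether IVF conception alters the ovary and its germ cells with age. Natural offspring came from CF-1 females mated with B6/SJL males, with no embryo transfer. IVF offspring came from eggs of superovulated CF-1 females and B6/SJL sperm, and the embryos were cultured to the blastocyst stage and transferred to pseudopregnant females, so superovulation, fertilization in vitro, culture and transfer cannot be told apart. RNA was counted in whole ovary at E18.5 (4 Natural, 6 IVF), 12 weeks (4 Natural, 5 IVF) and 39 weeks (5 Natural, 5 IVF), in pools of E13.5 primordial germ cells (PGCs; 4 Natural, 5 IVF), in single oocytes at 12 weeks (36 Natural, 40 IVF) and 39 weeks (9 Natural, 10 IVF), and in cumulus cells at 12 weeks (5 Natural, 5 IVF). Adults were delivered by c-section and raised by foster dams, and oocytes and cumulus cells came from females given eCG and hCG. The sources give no transgene or deletion for any group. The methods state that the ovaries came from different animals and litters, with up to 2 littermates allowed among adults. For PGCs, oocytes and cumulus cells the labels name no litter, and p-values then measure the spread between these libraries.

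Total counts ran from 6995713 to 14830788 in E18.5 ovaries, from 2839022 to 43363799 at 12 weeks (the lowest is IVF replicate 4) and from 18079970 to 38751638 at 39 weeks. The low-input libraries held 4364495 to 8675189 counts in PGCs, 839781 to 10879166 in 12-week oocytes, 2820748 to 31126357 in 39-week oocytes and 2532824 to 6345249 in cumulus cells. The 12-week oocytes were summed within 10 sets of 5 to 8 oocytes that share the start of their library name, read here as the donor female, and the sets, 5 Natural and 5 IVF, were the replicates. The 10 names begin with only 4 different numbers, 2 in each conception group. Whether sets with the same first number share a litter is not labelled, and if they do their p-values are too small. Against their labels, the summed CPM of 12 oocyte markers was 16062 to 32451 in the donor sets and 0.162 to 35.9 in cumulus cells, while 8 granulosa markers summed to 1131 to 2099 in cumulus cells. In PGC pools the 8 granulosa markers summed to 10.7 to 26.1 CPM, with no counts of Amh, Foxl2 and Fshr in any pool. The 5 endothelial markers summed to 73.5 to 453 CPM there. The library name of cumulus Natural replicate 5 starts with 126_2, as do those of an IVF oocyte set, and it was kept in the group that its title and treatment label give, with results also given without it. In all, 10 single 12-week oocytes and 2 of the 39-week oocytes stood apart with low oocyte markers, and the comparisons of oocytes are also given without them.

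Levels are given as CPM, the counts of a gene relative to the library's total count, after edgeR's trimmed mean (TMM) scaling. For IVF against Natural they were scaled within 1 table, and for ages and cell types across all ovaries or all low-input libraries, so the same library has 2 values that differ by its scaling factor. Fold changes were fitted by edgeR, and the fold printed is that of the fitted log2 difference. On GRCm38 with GENCODE M21, Sod1 lies at chr16:90220754-90226329, Sod2 at chr17:13006846-13040063, Cat at chr2:103453849-103485160 and Gpx1 at chr9:108338903-108340343. Gpx4 lies at chr10:80047166-80056439, Prdx1 at chr4:116685544-116700822 and Prdx3 at chr19:60864051-60874556. Gclc lies at chr9:77754535-77794485, Gclm at chr3:122245557-122270732 and Txnrd1 at chr10:82833951-82897712. Counts are per whole gene. Sod1, Gclm and Txnrd1 overlap antisense genes, Gclm and Txnrd1 also overlap a gene on their own strand, and Gpx4 has a pseudogene of its name, so their counts could hold reads of these, since the strand setting of the counting is not given in the sources used here.

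The first comparison asked how the enzymes changed in the naturally conceived ovary between late fetal life and young adulthood. At 12 weeks 8 of the 10 members were higher than at E18.5, where 25.3% of 19724 tested genes were called higher, and Gclm was lower, where 24.3% of genes were called lower (edgeR quasi-likelihood test, Benjamini-Hochberg adjusted p under 0.05 over all genes). Gclc, the catalytic subunit of the enzyme that makes the first bond of glutathione, and Gpx1, the cytosolic glutathione peroxidase, rose most. The median log2 difference of the members was 1.08, against 0.0075 for all genes.

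In the 4 E18.5 Natural ovaries Gclc was at 23.9, 23.7, 26.4 and 18.0 CPM, and in the 4 12-week Natural ovaries at 99.4, 91.9, 128 and 114 CPM. The groups lay far apart, and the difference was 2.24 ± 0.24 on the log2 scale (SE), or 4.71-fold (adjusted p = 3.79e-08). Gpx1 was at 132, 117, 146 and 120.1 CPM at E18.5 and at 420.4, 732, 542 and 627 CPM at 12 weeks, a 4.502-fold difference (log2 2.17 ± 0.24, adjusted p = 4.23e-08). Every 12-week ovary was above every E18.5 ovary for both genes. Gclm, the modifier subunit that raises the affinity of GCLC for glutamate, went the other way. It was at 58.3, 57.0, 37.6 and 61.6 CPM at E18.5 and at 30.5, 39.9, 37.2 and 32.1 CPM at 12 weeks, so that the groups overlapped through 1 E18.5 ovary (log2 −0.62 ± 0.19, adjusted p = 0.00715). The RNAs of the 2 subunits of the same enzyme therefore changed in opposite directions.

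Among the remaining enzymes, the mitochondrial peroxiredoxin Prdx3 rose from a mean of 61.6 to 179 CPM (log2 1.54 ± 0.21), the cytosolic peroxiredoxin Prdx1 from 192 to 431 CPM (1.17 ± 0.18), and the mitochondrial dismutase Sod2 from 41.0 to 86.6 CPM (1.08 ± 0.20). Gpx4, which reduces peroxides of membrane lipids, rose from 102 to 214 CPM (log2 1.07 ± 0.16), Cat from 53.2 to 97.3 CPM (0.87 ± 0.22, adjusted p = 0.00208) and Txnrd1, the cytosolic thioredoxin reductase, from 79.1 to 129 CPM (0.71 ± 0.16). For each of these the E18.5 and 12-week ovaries did not overlap. Sod1, the abundant cytosolic dismutase, was at 206, 272, 176 and 326 CPM at E18.5 and at 305, 332, 277 and 282 CPM at 12 weeks. Its groups overlapped and the difference of 0.29 ± 0.17 did not pass (adjusted p = 0.167), although it passed without E18.5 Natural replicate 4 (0.49, adjusted p = 0.0240).

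Cell-type markers moved with this comparison. All 7 luteal and steroidogenic markers and 7 of 8 granulosa markers were called higher at 12 weeks, and 6 of 7 erythroid and 5 of 6 stroma markers lower. In whole ovary, more cells of a type and more RNA per cell cannot be told apart, and the ages were also counted in separate tables, so that age and library set cannot be told apart either. The part of these markers in the members' differences was not tested.

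Between 12 and 39 weeks the Natural ovary differed less. Of the 10 members 1, Gpx4, was called higher, where 10% of genes were higher, and none was called lower, where 11.6% of genes were. Gpx4 was at 203, 251, 183 and 217 CPM at 12 weeks and at 339, 245, 341, 208 and 299.9 CPM at 39 weeks. The groups overlapped, and the difference was 0.42 ± 0.15 on the log2 scale (adjusted p = 0.0464). It did not pass in 16 of the 29 fits without 1 library each, with an adjusted p of up to 0.0592 for 12 of them and of 0.114 to 0.149 without 12-week Natural replicate 1 or 3 or 39-week Natural replicate 1 or 3, under scaling by library totals (0.29, adjusted p = 0.135) and with at least 10 counts in every library (adjusted p = 0.0589). Txnrd1 was at 128, 131, 124 and 135 CPM at 12 weeks and at 96.7, 100.9, 99.9, 88.9 and 113 CPM at 39 weeks, with no overlap. It missed the threshold at −0.37 ± 0.15 (adjusted p = 0.0805) and passed under library totals (−0.50, adjusted p = 0.0181) and the stricter filter (−0.40, adjusted p = 0.0439). Cat, at 77.7, 88.7, 118 and 105 CPM against 118, 148, 162, 109 and 175 CPM, gave 0.55 ± 0.21 and did not pass (adjusted p = 0.0625, and 0.0425 with DESeq2). Library totals lowered the median log2 difference of all genes by 0.12 here, and 46.4% of calls were higher with TMM factors against 29.5% with library totals. All 7 oviduct and epithelium markers were called lower at 39 weeks and 6 of 7 erythroid markers higher, and their part in these values was not tested.

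**Figure D1:**
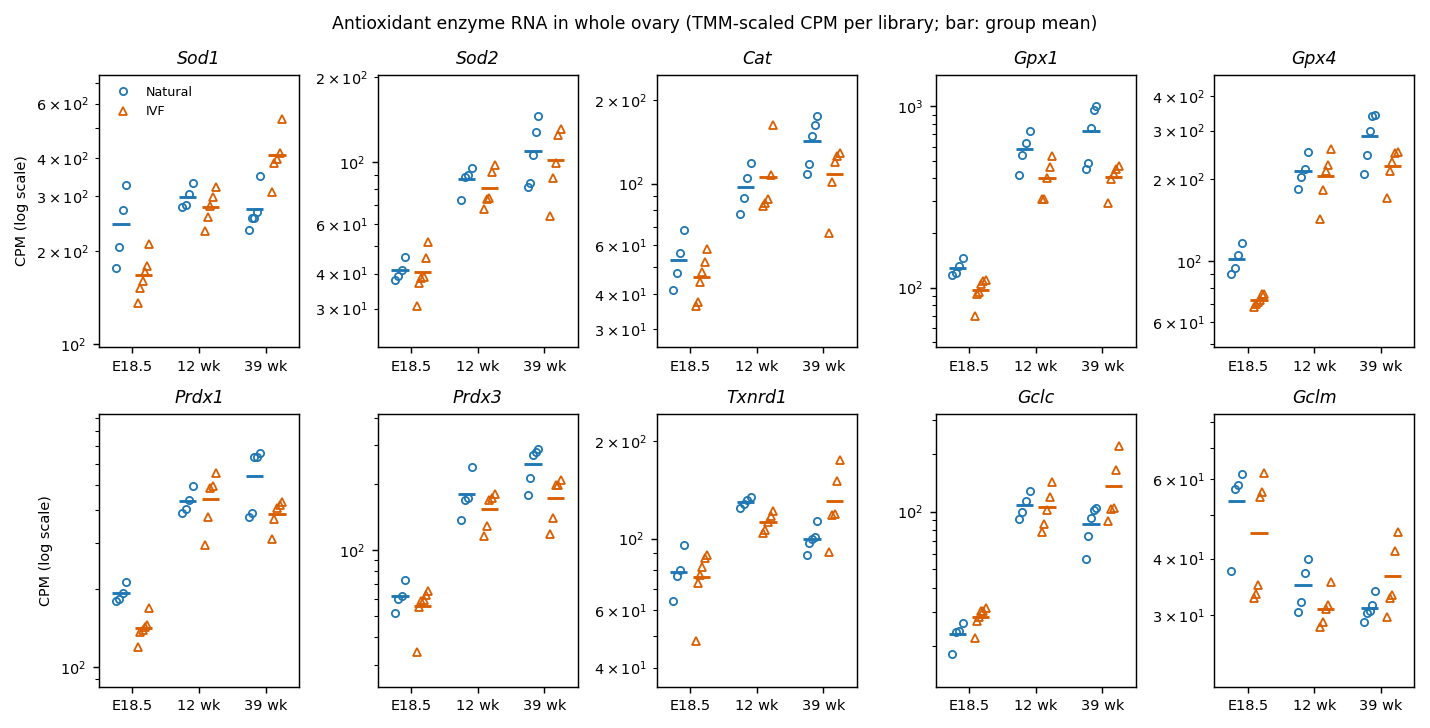
TMM-scaled CPM (log axis) of the 10 enzymes in whole ovary at the 3 ages, with 1 point per library for Natural (circles) and IVF (triangles) and a bar at each group's mean. Gclc and Gpx1 stand apart between E18.5 and 12 weeks, Gclm is lower in the adult, and Gpx1 in the 39-week Natural ovaries spreads from 449 to 1009 CPM.

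The central comparison asked whether IVF ovaries differed from Natural ovaries at each age. In fetal ovary, Gpx4 was the only member called. It was at 89.0, 103, 114 and 127 CPM in the 4 Natural ovaries and between 74.0 and 82.4 CPM in the 6 IVF ovaries, with a median of 78.3 CPM. No IVF ovary reached the lowest Natural ovary, and the difference was −0.46 ± 0.11 on the log2 scale, or 27.4% lower in IVF (adjusted p = 0.0264). That is 1 of 10 members called, beside 5.43% of 16415 genes. Gpx4 was called in 3 of the 10 fits that left out 1 library. It was lost without IVF replicate 2, 4, 5 or 6 and without Natural replicate 2, 3 or 4, with adjusted p from 0.00592 to 0.0759 and log2 values from −0.55 to −0.38.

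Prdx1, Gpx1 and Sod1 had negative values that did not pass. Prdx1 was at 178, 209.97, 198 and 231 CPM in Natural and from 129 through a median of 152 to 187 CPM in IVF, a difference of −0.40 ± 0.11 (adjusted p = 0.0533). Only 1 IVF ovary reached into the Natural range, and DESeq2 called it (adjusted p = 0.00991). Gpx1 was at 131, 128, 159 and 131 CPM in Natural and from 75.1 through 109 to 118 CPM in IVF, again without overlap, at −0.38 ± 0.13 (adjusted p = 0.0961). Sod1 was at 204, 296, 190.5 and 355 CPM in Natural and from 147 through 180.1 to 228 CPM in IVF, at −0.52 ± 0.17 (adjusted p = 0.0921, and 0.0418 with DESeq2). Natural replicates 2 and 4 lay above every IVF ovary for Sod1, and replicates 1 and 3 lay inside the IVF range. In all, 2 of 10 members did not overlap with IVF lower, beside 4.33% of all genes, and none did with IVF higher, beside 4.28%.

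The remaining members gave small values at E18.5. Gclc, with 5 of 6 IVF ovaries above the Natural median, was at 23.7, 25.8, 28.6 and 19.6 CPM in Natural and from 24.0 through 31.7 to 34.2 CPM in IVF (log2 0.33 ± 0.14, adjusted p = 0.176). Sod2, Cat, Prdx3, Gclm and Txnrd1 lay between −0.20 and 0.012 on the log2 scale, and all had overlapping groups. The median over the 10 members was −0.18, against 0.00021 over all genes. Of 70 tested genes from other antioxidant lists, 7 were called lower and 0 higher, beside 452 lower and 439 higher of all 16415 genes. Among them were the plasma glutathione peroxidase Gpx3 (−0.93 ± 0.23, adjusted p = 0.0333), the peroxiredoxin Prdx5 (−0.42), thioredoxin Txn1 (−0.42) and its mitochondrial counterpart Txn2 (−0.41).

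Other markers moved with conception at this age. The 7 erythroid markers summed to 604 to 1604 CPM in Natural and 1622 to 4638 CPM in IVF ovaries, without overlap, and 3 of them, Alas2, Hbb-bs and Slc4a1, were called higher. Oocyte markers summed to 263 to 773 CPM in Natural and 149 to 427 CPM in IVF, and 3 of 11 tested, Gdf9, Zp1 and Zp3, were called lower. Another marker of that list, Oosp1, was at 0 in every E18.5 library. The steroidogenic genes Lhcgr, Cyp17a1 and Star were called higher in IVF, though the 7 markers summed to 21.3 to 54.0 CPM in Natural and 33.3 to 50.6 CPM in IVF. The endothelial marker Pecam1 was called lower in IVF (−0.45, adjusted p = 0.0333). Their part in the enzyme values was not tested. The labels and 1 passage of the paper give E18.5 for fetuses of both groups, while another passage gives a later day for IVF pregnancies, and a difference in fetal stage was not tested.

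At 12 weeks none of the 10 members was called, beside 0.00567% of 17628 genes (1 gene). Txnrd1 was at 128, 133, 123 and 135 CPM in Natural and at 121, 105, 118, 115 and 109 CPM in IVF ovaries. It did not overlap, as the only member lower in IVF, beside 3.64% of genes, and no member did so higher, beside 2.46%. Its difference of −0.20 ± 0.07 did not pass (adjusted p = 0.270). Gpx1 was at 423, 739.7, 538 and 630.3 CPM in Natural and at 464, 314, 403, 313 and 544 CPM in IVF, at −0.51 ± 0.21 (adjusted p = 0.301). Of the members 2, Txnrd1 and Gpx1, had an unadjusted p under 0.05, as did 2544 of all 17628 genes. The 7 oviduct and epithelium markers summed to 3550 to 7973 CPM in Natural and 93.7 to 3148 CPM in IVF ovaries, without overlap, and their part in these values was not tested.

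At 39 weeks none of the members was called, beside 0.262% of 17186 genes, though 6 of them had an unadjusted p under 0.05, as did 3303 of all genes. The values lay farther from 0 than at 12 weeks and on both sides of it. Sod1 was at 234, 233, 328, 213 and 246 CPM in Natural and at 386, 380.3, 494, 282 and 352 CPM in IVF. All 5 IVF ovaries were above the Natural median, the highest Natural ovary overlapped them, and the difference was 0.59 ± 0.16, or 51.0% (adjusted p = 0.110, and 0.0125 with DESeq2). Gpx1 was at 924, 443, 898, 409.6 and 697 CPM in Natural and at 389, 271, 393, 413 and 429.8 CPM in IVF, at −0.83 ± 0.25 (adjusted p = 0.129, and 0.0208 with DESeq2). None of the IVF ovaries was above the Natural median, Natural replicates 2 and 4 were inside or near the IVF range and the others were well above it.

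Prdx3, Prdx1, Cat, Gpx4 and Sod2 also had negative values at 39 weeks, and Gclc, Txnrd1 and Gclm positive ones, none of which passed. Prdx3 was at 255, 194, 270.4, 162 and 248 CPM in Natural and at 116, 181, 192, 180.1 and 128 CPM in IVF (−0.50 ± 0.18, adjusted p = 0.193). Prdx1 differed by −0.47 ± 0.19 (adjusted p = 0.216), Cat by −0.39 ± 0.19 (0.282) and Gpx4 by −0.35 ± 0.17 (0.276). Gclc was at 52.0, 92.8, 98.2, 67.9 and 85.3 CPM in Natural and at 102, 202, 82.2, 151 and 94.3 CPM in IVF (0.67 ± 0.26, adjusted p = 0.213). Txnrd1 differed by 0.40 ± 0.15 (adjusted p = 0.201), Gclm by 0.24 ± 0.12 (0.302) and Sod2 by −0.10 ± 0.21 (0.822). None of the 10 members separated the groups, beside 2.85% of genes lower and 2.27% higher in IVF without overlap.

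The spread of Gpx1 among the 39-week Natural ovaries ran beside the steroidogenic markers. Replicates 1, 3 and 5, with Gpx1 at 924, 898 and 697 CPM, had summed steroidogenic markers of 30064 to 32953 CPM, and replicates 2 and 4, with Gpx1 at 443 and 409.6 CPM, had 20252 and 20025 CPM. The 7 markers summed to 11208 to 24742 CPM in IVF ovaries, and 8 granulosa markers to 801 to 2109 CPM in Natural and 1360 to 3902 CPM in IVF. At 12 weeks the order of the groups was the opposite for the 2 measures. Mean Gpx1 was 583 CPM in Natural and 408 CPM in IVF, and the steroidogenic markers had medians of 16410.5 and 22230 CPM. The oviduct and epithelium markers summed to 9198 CPM in IVF replicate 1, against at most 239 CPM in the Natural ovaries, and without that library no member was called either. The part of these markers in the enzyme values was not tested.

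**Figure D2:**
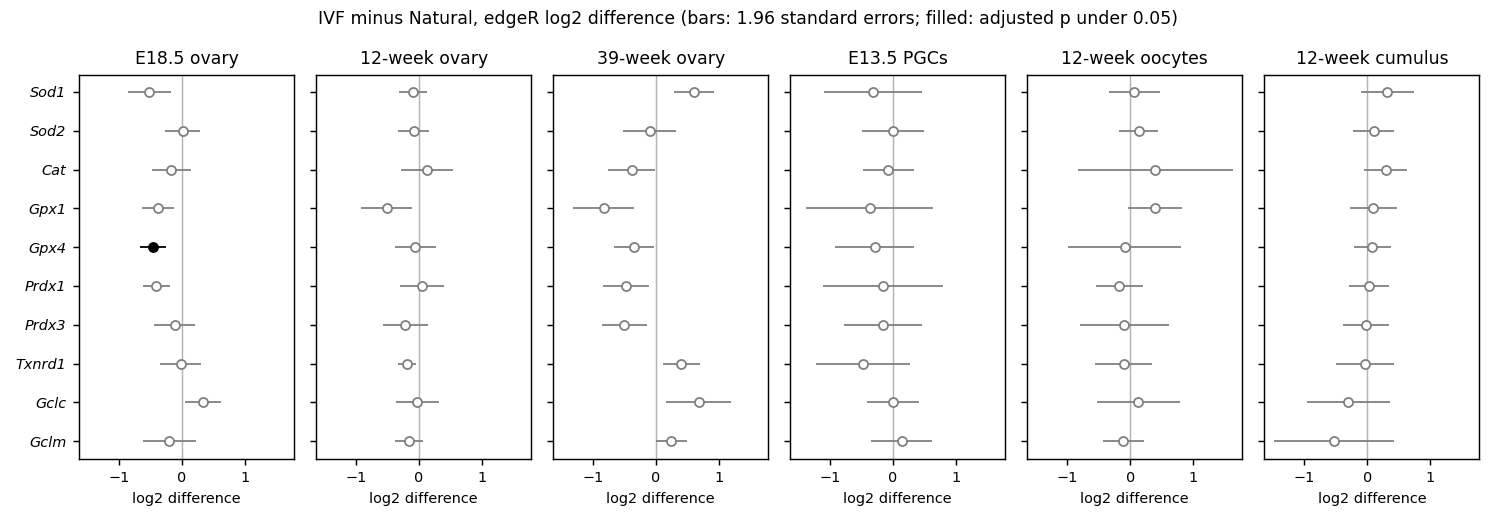
IVF minus Natural log2 difference of each enzyme in the 6 tested tables (points, edgeR; bars, approximate 95% intervals; filled, adjusted p under 0.05). The only filled point is Gpx4 in E18.5 ovary at −0.46, and the 39-week ovary shows values from −0.83 for Gpx1 to 0.67 for Gclc.

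Whether the IVF difference itself changed with age was tested as an interaction across the 29 ovaries. No member was called between 39 and 12 weeks, beside 2.71% of 19724 genes, or between 12 weeks and E18.5, beside 0.314%. For Sod1 the IVF difference was 0.69 ± 0.22 larger at 39 than at 12 weeks on the log2 scale (adjusted p = 0.0779, 0.0481 with DESeq2, and 0.0435 without 39-week IVF replicate 4). The same quantity was 0.59 ± 0.21 for Txnrd1 (adjusted p = 0.102), 0.71 ± 0.30 for Gclc (0.173) and −0.51 ± 0.23 for Prdx1 (0.209). None of these passed the threshold with edgeR in all libraries, while 2 of 71 tested genes from the other antioxidant lists were called higher and 5 of 7 oviduct and epithelium markers were called in that interaction.

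The germ line was followed from PGCs to oocytes in Natural females, and cumulus cells were set beside oocytes. Of the Natural cumulus libraries only replicates 3 and 4 share a donor set name with Natural oocytes, and the main fit did not pair them. The scaling between libraries weighed more here than in the ovary. The TMM factors ran from 1.49 to 2.22 in Natural PGCs and from 0.524 to 0.635 in Natural oocytes, and scaling by library totals moved the median log2 difference of all genes by −1.71 for oocytes against PGCs and by 0.68 for cumulus cells against oocytes. Differences are therefore given with both, TMM first. The library-total fit was added after these values were seen. Cell type, age and count table cannot be told apart in these comparisons, and both share the oocyte donor sets.

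With TMM factors 7 of 10 members were lower in oocytes than in PGCs, beside 39.4% of 15792 genes, and 2 were higher, beside 37.4%. Library totals gave 9 lower and 0 higher, with 26.9% of all calls higher against 48.7% with TMM. Gpx1, Gpx4 and Sod1 differed most. Gpx1 was at 473, 87.0, 512 and 366 CPM in the 4 PGC pools and at 10.1, 6.85, 7.57, 8.90 and 9.08 CPM in the 5 oocyte sets, 42.2-fold lower (log2 −5.40 ± 0.42 with TMM, −7.003 with library totals). Gpx4 was at 274, 112, 206 and 168 CPM in PGCs and at 2.82, 3.21, 3.25, 5.55 and 9.29 CPM in oocytes, 39.1-fold lower (−5.29 ± 0.41 and −6.88). Sod1 was at 1346, 602, 604 and 673 CPM in PGCs and at 26.4, 21.3, 44.2, 34.5 and 25.1 CPM in oocytes, 26.6-fold lower (−4.74 ± 0.34 and −6.37). In all 3 genes the highest oocyte set lay far below the lowest PGC pool.

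Cat, Prdx3, Gclc and Sod2 were also lower in oocytes with both scalings. Cat had a mean of 21.7 CPM in PGCs and 1.61 CPM in oocytes (−3.70 ± 0.46 with TMM, −5.34 with totals), and Prdx3 30.3 and 4.99 CPM (−2.59 ± 0.34 and −4.23). Gclc had 32.6 and 11.3 CPM (−1.53 ± 0.32 and −3.23) and Sod2 86.1 and 33.0 CPM (−1.38 ± 0.21 and −3.06). Sod2 had the smallest fall of the 7, though its difference from Gclc was not tested.

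Prdx1, Gclm and Txnrd1 changed sign with the scaling. Prdx1 was at 889.6, 201, 821 and 516 CPM in PGCs and at 1551, 1293, 1579.8, 1725 and 1413 CPM in oocytes with TMM factors, 2.49-fold higher (log2 1.32 ± 0.39, adjusted p = 0.00303), whereas library totals gave −0.28 ± 0.32 (adjusted p = 0.422). Gclm was at 37.7, 32.0, 25.6 and 24.4 CPM in PGCs and at 64.1, 49.3, 56.4, 56.7 and 45.2 CPM in oocytes with TMM (0.86 ± 0.35, adjusted p = 0.0254), but 0.83 lower with library totals (−0.83 ± 0.38, adjusted p = 0.0455). Txnrd1 was at 94.0, 35.5, 141 and 134 CPM in PGCs and at 127, 121, 160.04, 116 and 71.5 CPM in oocytes with TMM (0.24 ± 0.33, adjusted p = 0.517), against −1.43 ± 0.32 with library totals (adjusted p = 1.60e-04). Their direction between these cell types therefore depends on the scaling. These 3 had the highest oocyte-to-PGC values among the 10 members. A change of scaling moves all genes nearly alike, so it could hardly change that order.

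A share within a library does not depend on scaling. Prdx1 made up 82.9% to 86.5% of the summed CPM of the 10 members in Natural oocyte sets and 77.5% to 87.0% in IVF oocyte sets, against 16.6% to 32.9% in Natural PGCs and 23.7% to 34.0% in IVF PGCs. It made up 55.4% to 69.5% in Natural cumulus cells and 17.0% to 25.2% in ovaries of any age and group. Per kilobase of transcript, Prdx1 led the members in Natural oocytes at 394.5 CPM per kb, followed by Sod1 at 28.3 and Txnrd1 at 20.2. In Natural PGCs Sod1 led at 2360.0 CPM per kb, ahead of Gpx1 at 633 and Prdx1 at 498. In the 12-week Natural ovary Gpx1 and Sod1 came first, at 544 and 468 CPM per kb, and overlapping libraries do not separate them.

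Gclm, Prdx1 and Txnrd1 held a match to the letters TGACNNNGC, the core of the antioxidant response element, in the 250 bases before a start site. So did Sod1, which was lower in oocytes than in PGCs with both scalings. The sequences of Gclm, Prdx1 and Txnrd1 are shown because the description of the oocytes turns on these 3 genes. They come from RefSeq on GRCm38.p6, are written 5′ to 3′ on the gene's strand, and end at the base before the start. Capitals mark the match, which lies on the opposite strand in each. Gclm spans chr3:122245307-122245556 (plus strand, match at −134), Prdx1 chr4:116685349-116685598 (plus strand, match at −133) and Txnrd1 chr10:82858956-82859205 (plus strand, 1 of 3 listed starts, match at −92).
Gclm: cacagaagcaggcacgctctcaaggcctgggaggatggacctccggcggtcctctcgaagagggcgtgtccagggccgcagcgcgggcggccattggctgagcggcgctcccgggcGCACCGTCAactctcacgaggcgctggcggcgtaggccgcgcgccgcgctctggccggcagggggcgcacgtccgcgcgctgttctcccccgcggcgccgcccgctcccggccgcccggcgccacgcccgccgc
Prdx1: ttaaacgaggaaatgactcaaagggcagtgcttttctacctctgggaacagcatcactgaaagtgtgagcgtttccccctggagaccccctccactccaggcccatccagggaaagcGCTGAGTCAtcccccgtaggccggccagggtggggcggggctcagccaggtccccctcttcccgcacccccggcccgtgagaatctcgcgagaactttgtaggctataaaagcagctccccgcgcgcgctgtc
Txnrd1: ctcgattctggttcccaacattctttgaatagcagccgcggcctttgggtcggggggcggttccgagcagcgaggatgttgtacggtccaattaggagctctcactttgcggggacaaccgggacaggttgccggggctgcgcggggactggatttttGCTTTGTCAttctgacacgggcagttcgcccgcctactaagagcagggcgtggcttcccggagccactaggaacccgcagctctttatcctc
Both strands were searched over 300 bases, 250 before and 50 after each start. Sod1 also held a match, at −56, and none was found for Cat, Gpx1, Gpx4, Prdx3 or Sod2. Gclc was not searched. Among all 32851 listed promoters, 12.4% held a match, so a match is common, and it is a description of these letters only. That share is per promoter and not per gene, and Txnrd1 has several listed promoters.

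Cumulus cells, the granulosa-derived cells that feed the oocyte, had higher CPM for several enzymes that were low in oocytes. CPM is a share of each library, and RNA per cell was not measured. With TMM factors 5 members were higher in Natural cumulus cells than in oocytes, beside 37.6% of 15792 genes, and 3 lower, beside 41.9%. Library totals gave 7 higher and 2 lower. Gpx4 was at 249.05, 257, 214, 244 and 283 CPM in cumulus cells, 51.3-fold above the oocyte sets given above (log2 5.68 ± 0.41 with TMM, 6.39 with library totals). Gpx1 was 34.0-fold higher (5.09 ± 0.41 and 5.85), Prdx3 19.8-fold (4.31 ± 0.35 and 5.06), Sod1 19.6-fold (4.29 ± 0.32 and 5.04) and Cat 14.0-fold (3.81 ± 0.45 and 4.51). No cumulus library overlapped an oocyte set for these 5 genes.

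Gclm and Txnrd1 were lower in cumulus cells with both scalings. Gclm was at 4.42, 7.03, 7.03, 7.66 and 3.82 CPM in cumulus cells, 9.06-fold below oocytes (log2 −3.18 ± 0.36 with TMM, −2.40 with totals), and Txnrd1 at 23.8, 25.8, 21.1, 16.7 and 30.1 CPM, 5.06-fold below (−2.34 ± 0.33 and −1.58). No library overlapped for either. Gclc was lower with TMM (−0.77 ± 0.31, adjusted p = 0.0256) and at 0.011 with library totals (adjusted p = 0.985), so its direction depends on the scaling. It also lost its call with DESeq2's size factors in edgeR (adjusted p = 0.0641), without cumulus Natural replicate 2 or 5 (adjusted p = 0.0506 without replicate 5, whose library name starts like those of an IVF set) and without oocyte set 92_5. Without replicate 5 the other 7 calls held. Prdx1 was at 1995, 2045, 1553, 2982 and 2848 CPM in cumulus cells and did not pass with TMM (0.60 ± 0.35, adjusted p = 0.123), but passed with library totals (1.34, adjusted p = 2.63e-04). Sod2 gave 0.18 ± 0.20 with TMM (adjusted p = 0.414) and 0.93 with totals (adjusted p = 5.77e-05).

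**Figure D3:**
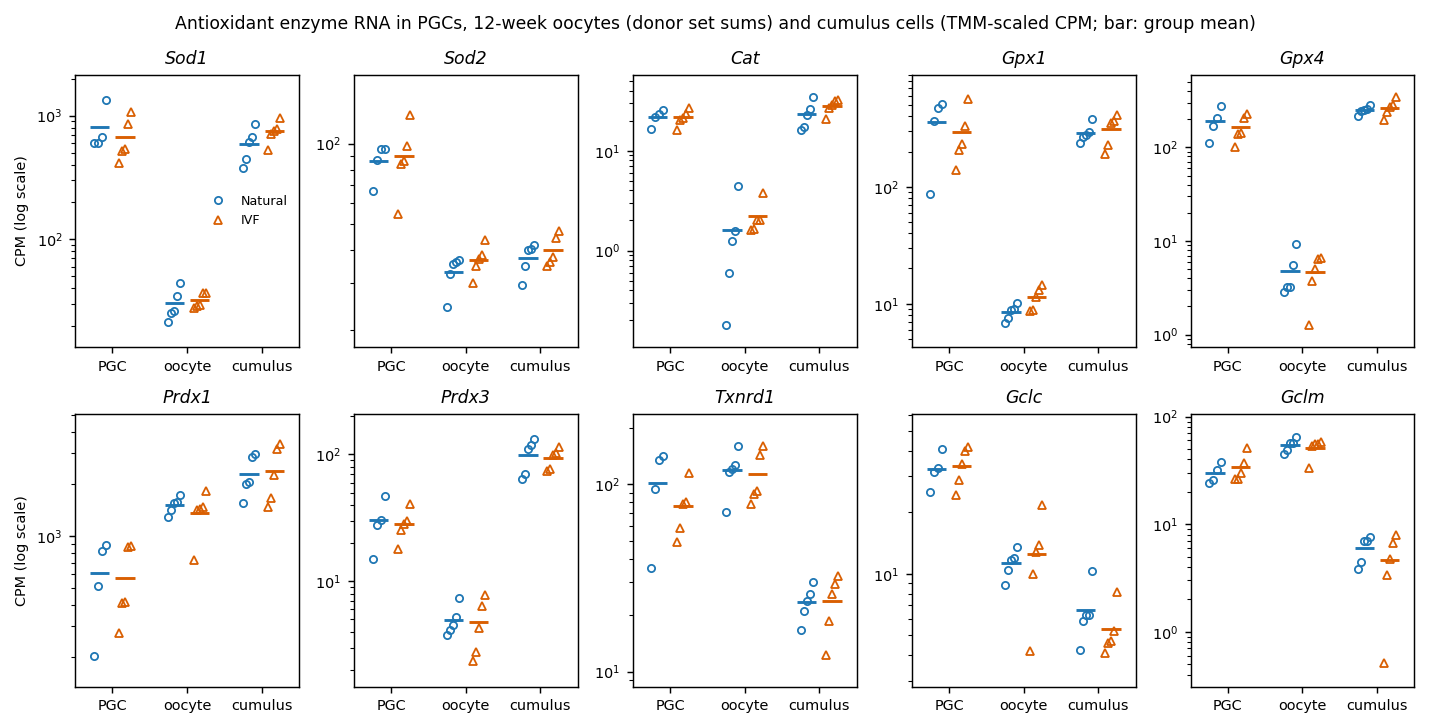
TMM-scaled CPM (log axis) of the 10 enzymes in PGC pools, 12-week oocyte donor sets and cumulus libraries, with 1 point per replicate for Natural (circles) and IVF (triangles) and a bar at each group's mean. Gpx1, Gpx4 and Sod1 dip in oocytes under either scaling, whereas the oocyte-to-PGC direction of Prdx1, Gclm and Txnrd1 shown here flips when library totals are used in place of TMM factors.

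**Figure D4:**
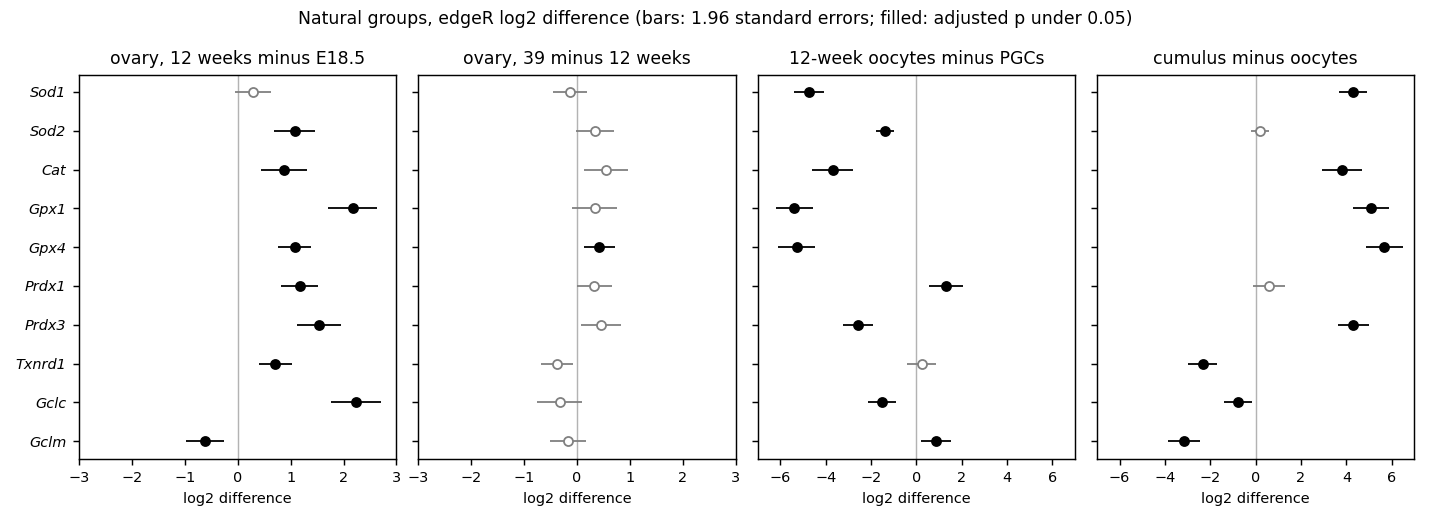
Log2 difference between Natural groups for each enzyme (edgeR with TMM factors; bars, approximate 95% intervals; filled, adjusted p under 0.05) for ovary ages and for the low-input cell types, which have a wider axis. Oocytes differ from PGCs by −5.40 for Gpx1 and −5.29 for Gpx4, and the positive values of Prdx1, Gclm and Txnrd1 in that panel turn negative under library totals, as does Gclc from negative to near 0 for cumulus cells against oocytes.

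Genes that supply or use the same cofactors were counted as well. Of 70 tested genes from the other antioxidant lists, 19 were higher and 36 lower in oocytes than in PGCs with TMM factors, beside 37.4% and 39.4% of all genes, and 13 and 52 with library totals. The cystine transporter Slc7a11 was higher with both (log2 7.90 and 6.25), as were Ggct, a gamma-glutamyl cyclotransferase (6.59 and 4.93), and the NADPH-producing enzymes Me1 (7.06 and 5.24) and G6pdx (4.53 and 2.84). Glutathione transferase Gstm1 (−6.40 and −8.01), peroxiredoxin Prdx4 (−6.02 and −7.67) and thioredoxin Txn1 (−2.69 and −4.34) were lower with both. In cumulus cells against oocytes the lists gave 43 higher and 16 lower with TMM, beside 37.6% and 41.9% of all genes, and 49 and 12 with library totals. In the Natural ovary 43 of 71 tested were higher and 11 lower at 12 weeks than at E18.5, beside 25.3% and 24.3% of all genes. The higher ones included the secreted dismutase Sod3 (3.50), sulfiredoxin Srxn1 (2.83) and Mt1 (2.99), a metallothionein. Between 12 and 39 weeks 7 were higher and 4 lower, beside 10% and 11.6% of all genes, including heme oxygenase Hmox1 (1.08) and Slc7a11 (−2.42), and 5 and 9 with library totals.

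No member was called between IVF and Natural in the germ line or in cumulus cells. In PGCs 0 of 10 members were called, beside 0% of 12763 genes, and 0 members had an unadjusted p under 0.05, as 349 of all genes did. The PGC values ran from −0.48 ± 0.38 for Txnrd1 to 0.14 ± 0.25 for Gclm. Txnrd1 was at 181, 62.1, 260.1 and 258 CPM in Natural pools and at 143, 92.7, 135, 212 and 99.8 CPM in IVF pools, with an interval of −1.22 to 0.26. On the scale of the PGC table alone, Sod1 was at 2589.8, 1052, 1115 and 1295 CPM in Natural and at 1517, 779, 933, 1954 and 882 CPM in IVF (−0.32 ± 0.40). For both genes the pools of a group differed from each other by more than the group means did. In simulated tables of this design edgeR recovered 4.26% of genes changed by 1 on the log2 scale.

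In 12-week oocyte sets no member was called either, beside 0.0277% of 14444 genes, and none separated the groups, beside 1.39%. The same held in PGCs, beside 1.18%. Prdx1 was at 905, 782, 956, 1018 and 864 CPM in the Natural sets and at 817, 1086, 439, 860.1 and 821 CPM in the IVF sets (−0.17 ± 0.19, interval −0.54 to 0.21, adjusted p = 0.917). Set 126_4 gave the low value. Gpx1, with a difference of 0.39 ± 0.22, was at 5.92, 4.14, 4.58, 5.25 and 5.55 CPM in Natural and at 5.02, 6.91, 8.02, 8.44 and 5.11 CPM in IVF (adjusted p = 0.806). Cat, at 0.109 to 2.73 CPM in all 10 sets, had the widest error (0.40 ± 0.62).

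In cumulus cells 0 of 10 members were called, beside 0.00973% of 10280 genes, and 0 separated the groups, beside 0.759%. Gclm was at 4.33, 6.47, 6.65, 8.21 and 3.87 CPM in Natural and at 7.04, 7.65, 4.82, 0.493 and 3.25 CPM in IVF (−0.52 ± 0.49, adjusted p = 0.920). IVF replicate 4 gave the lowest of these values, from 3 counts. Sod1 was at 845, 345, 420.5, 662 and 677 CPM in Natural and at 745, 752, 537, 723 and 916 CPM in IVF (0.32 ± 0.21, adjusted p = 0.875). Without Natural replicate 5, whose Sod1 was the highest of the Natural group, it was 0.58 ± 0.19 (adjusted p = 0.651), and no member was called. The IVF difference did not differ between cumulus cells and oocytes for any member at the threshold, beside 0.00633% of 15792 genes. The immune markers of the cumulus libraries summed to 74.5 to 4407 CPM, and their part in these values was not tested.

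Single oocytes show what lies under the donor sets. Over the 76 oocytes Prdx1 ran from 68.3 through a median of 933 to 1362 CPM, Txnrd1 from 0 through 66.5 to 164 CPM and Gclm from 0 through 33.6 to 53.1 CPM. Sod1 ran from 3.69 through 18.1 to 44.8 CPM, Sod2 from 7.60 through 20.7 to 51.4 CPM and Gpx1 from 1.15 through 5.30 to 24.6 CPM. Cat had no counts in 30 of the oocytes, Gpx4 in 12, and Prdx3 and Gclc in 6 each. For such genes 3 counts, the most that a count of 0 allows, correspond to 0.276 CPM in the deepest and 3.57 CPM in the shallowest oocyte, which covers counting error only.

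Of the 76 oocytes 10, 4 Natural and 6 IVF, had summed oocyte markers of 2289 to 6837 CPM, against 15175 to 40637 CPM in the other 66. Prdx1 was at 68.3 to 287 CPM in the 10, with a median of 135, and at 572 to 1362 CPM in the 66, with a median of 955. Gclm was at 0 to 7.59 CPM in the 10 and at 18.3 to 53.1 CPM in the 66, and Txnrd1 at 0 to 23.4 CPM and 35.4 to 164 CPM. For these 3 genes the 10 oocytes lay wholly below the rest. Gclc had a median of 0 in the 10 and 7.34 CPM in the 66. For the dismutases the medians of the 10 and the 66 were 15.4 and 18.4 CPM for Sod1 and 21.2 and 20.7 CPM for Sod2, but the spread was wide. Sod1 was at 3.69 to 6.14 CPM in the 4 Natural and at 15.4 to 44.8 CPM in the 6 IVF oocytes of the 10. Oocytes that share a donor set are not replicates of a conception group, and the share of all genes split in this way was not counted. Between the IVF and Natural donor sets, with all oocytes, Sod1 differed by 0.062 ± 0.21 (edgeR adjusted p = 0.976). Gpx1 was higher in the 10, with medians of 12.3 and 5.08 CPM. The 10 came from Natural sets 35_3, 92_4 and 92_5 and from IVF sets 126_4 and 127_2, with total counts of 839781 to 4991194 against 2591803 to 10879166, and no test was made because they were set apart by measured values.

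**Figure D5:**
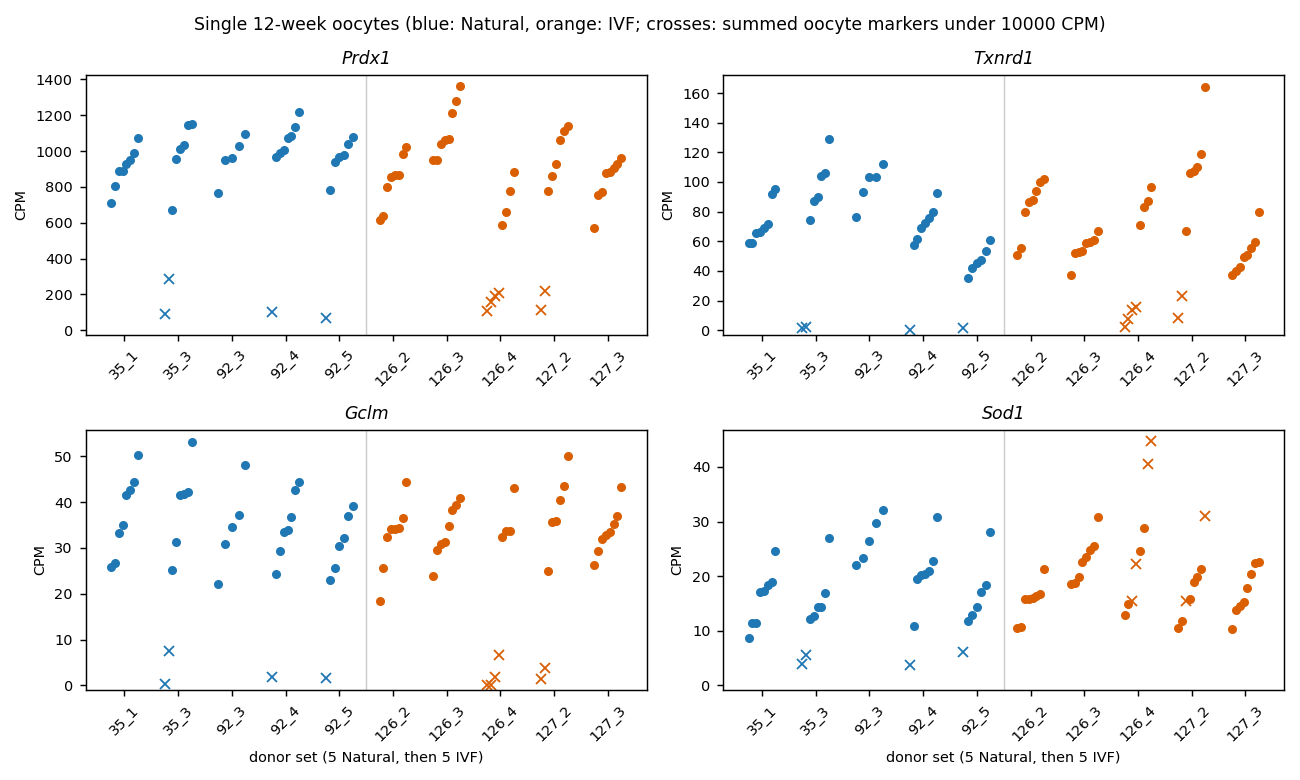
CPM (linear axis) of Prdx1, Txnrd1, Gclm and Sod1 in each single 12-week oocyte by donor set, 5 Natural sets (blue) and then 5 IVF sets (orange). Crosses mark the 10 oocytes with summed oocyte markers under 10000 CPM, which sit at 68.3 to 287 CPM for Prdx1, below the 572 to 1362 CPM of the other 66.

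Without these 10 oocytes no member was called between IVF and Natural. All 10 members were called between Natural oocytes and PGCs with TMM factors, 3 higher and 7 lower, with Prdx1 at 1.82, Gclm at 1.39 and Txnrd1 at 0.74 (adjusted p = 0.0431). Between cumulus cells and oocytes 8 members were called without them, with Gpx4 at 5.46, Gclm at −3.36, Txnrd1 at −2.52 and Gclc at −0.97 (adjusted p = 0.00353). Set 126_4, which held 4 of the 10, had the lowest Prdx1 and Gclm of the IVF sets.

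The 39-week oocytes have no donor labels, so oocytes of 1 female cannot be told from those of another, and no test was made. None of the 9 members that passed the filter reached a ratio of 2 between the group means, beside 14.3% of 10940 genes. Txnrd1 ran from 4.58 through a median of 23.3 to 37.8 CPM in the 9 Natural oocytes and from 13.0 through 37.0 to 73.2 CPM in the 10 IVF oocytes, with a log2 ratio of means of 0.82. Gclm ran from 0 through 2.89 to 10.1 CPM in Natural and from 1.59 through 5.56 to 8.95 CPM in IVF (0.64). Prdx1 ran from 135 through 969.6 to 2036 CPM in Natural and from 612 through 1283 to 2541 CPM in IVF (0.41). The ranges of all 3 overlapped widely.

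Natural replicates 6 and 9 had summed oocyte markers of 3169 and 4745 CPM, against at least 18697 CPM in the rest, and Prdx1 at 389 and 135 CPM with no Gclm count. Without them the log2 ratios were 0.60 for Txnrd1, 0.28 for Gclm and 0.14 for Prdx1. The other members gave 0.38 for Gpx4, 0.34 for Gclc, 0.20 for Sod1, 0.081 for Prdx3, 0.044 for Sod2 and −0.38 for Gpx1 with all oocytes. By the ratio of medians Gpx4 was at −0.31, and with library totals Sod2 was at −0.059 and Prdx3 at −0.11. Without the pair, Gpx4 was at 0.56, Sod1 at 0.094, Sod2 at 0.26, Gclc at −0.024, Prdx3 at −0.28 and Gpx1 at −0.52, so Gclc and Prdx3 changed sign. Cat had 127 counts over the Natural and 65 over the IVF oocytes. Prdx1 made up 57.0% (low-marker replicate 9) to 94.6% of the members' summed CPM in the Natural oocytes and 84.9% to 94.3% in the IVF oocytes. Gclm in this table, at 0 to 10.1 CPM, lay below the 18.3 to 53.1 CPM of the 66 12-week oocytes. The tables were counted separately and no comparison between them was tested.

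Over the 29 ovaries, with each library taken as its difference from the mean of its group on the log2 scale, the gene most like each member was found among 19723 others by Pearson's r. The highest values were 0.848 between Prdx1 and Tm7sf2, a sterol reductase gene, 0.847 between Gclc and Epb41l3, and 0.845 between Gclm and Mat2b. For the rest the nearest genes were Psmg1 for Sod1 (0.834), Tmem135 for Sod2 (0.838), Cd1d1 for Cat (0.811), Ak3 for Gpx1 (0.831), Rhod for Gpx4 (0.836), Rab5b for Prdx3 (0.804) and Mrpl50 for Txnrd1 (0.820). Among the members themselves Gpx1 and Prdx1 gave 0.780, Gpx4 and Prdx1 0.752 and Sod2 and Cat 0.694, while Gpx4 and Gclc gave −0.366. All genes of a library share its depth and cell makeup, and these values are given as a description.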

How the data were processed

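RNA-seq counts were analysed from whole ovaries, PGC pools, single oocytes and cumulus cells of Natural and IVF offspring. The authors deposited raw counts per gene name, 1 table per tissue and age. According to the methods, low-input reads were trimmed with Trim Galore, aligned to mm10 with STAR and counted with featureCounts, while the submitters' notes name Trimmomatic 0.32, STAR 2.3.0e, featureCounts 1.5.0 and DESeq2. For ovaries the methods refer to an earlier study. Of 151 samples 143 had a count column, and 8 were not analysed here. The 39-week table of oocytes was not tested, since donors are not labelled.

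Counts were tested with edgeR 4.0.16 (R 4.3.3) by the quasi-likelihood test with TMM factors, after edgeR's filter on low counts, and p-values were adjusted by Benjamini-Hochberg over all genes that passed. IVF and Natural were compared within each table, with the library set as a covariate in cumulus cells, and ages and cell types in joint fits of all ovaries or all low-input libraries. The 12-week oocytes were summed by donor set. An interval is 1.96 standard errors each way. Groups came from the labels, and 1 ovary of the 39-week Natural group has a different age in its source name and was placed by its title. The members, marker lists and other antioxidant lists were chosen with earlier results of these data known. Every member was named, and other genes were named from those lists by call or size.

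Depth was 839781 to 43363799 counts per library, and floors cover counting error only. The intervals come from the standard errors of the edgeR fit and also hold the spread between libraries. In tables simulated from these libraries edgeR recovered 62.5% of genes changed by a log2 of 1 in E18.5 ovary (16415 genes), 47.5% at 12 weeks (17628 genes), 46% at 39 weeks (17186 genes), 4.26% in PGCs (12763 genes), 30.5% in oocytes (14444 genes) and 59% in cumulus cells (10280 genes). Alternatives were DESeq2 1.42.0, its size factors in edgeR, no filter, a filter of 10 counts in every library, a replicate block, leaving out each replicate, and, chosen after seeing the data, leaving out oocytes with summed oocyte markers under 10000 CPM and scaling by library totals.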

Additional observations from a re-analysis of the deposited data

Results flagged for a closer look

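Among 140 groups of 4 to 10 libraries, 10 held a library farther from the rest than Dixon's 95% limit, where chance gives about 1 in 20, or 7. In the ovary Gpx1 stood at 159 CPM in E18.5 Natural replicate 3, with the next at 131 CPM, and at 271 CPM in 39-week IVF replicate 2, with the next at 389 CPM. Sod1 stood at 328 CPM in 39-week Natural replicate 3, with the next at 246 CPM. In PGCs Sod1 stood at 2589.81 CPM in Natural replicate 1, with the next at 1295 CPM.

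In the 12-week oocyte sets Cat stood at 2.24 CPM in set 126_3, with the next at 1.23 CPM, and Gclm at 20.2 CPM in set 126_4, with the next at 31.8 CPM. Set 126_4 held 4 of the oocytes with low oocyte markers. In cumulus cells Gclc stood at 8.26 CPM in IVF replicate 3, with the next at 5.10 CPM.

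In the 39-week oocytes Cat stood at 2.56 CPM and Gpx1 at 41.8 CPM in IVF replicate 1, with the next at 0.863 and 15.3 CPM, and Cat at 6.94 CPM in Natural replicate 3, with the next at 1.45 CPM. The erythroid markers summed to 31425 CPM in that IVF oocyte and to 22130 CPM in that Natural oocyte, and their part in these values was not tested.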

How the results depend on the processing

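Of the changes of setting for single members, 2237 kept the direction and the side of the threshold. In E18.5 ovary 2 members were called with DESeq2's size factors, 2 with at least 10 counts in every library (Prdx1 added in both), 3 with DESeq2 and 0 with a replicate block (Gpx4 −0.45, edgeR adjusted p = 0.219). Leaving out 1 library gave 0 to 3. Without IVF replicate 5 Prdx1 was called (adjusted p = 0.0435) and Gpx4 was not. Without Natural replicate 1 Sod1 and Prdx1 were added (adjusted p = 0.0402 and 0.0215). DESeq2 called 2 members in 39-week ovary and 2 between the Natural 39- and 12-week ovaries (Gpx4 and Cat), where the stricter filter called Txnrd1 in place of Gpx4 and leaving out 1 library gave 0 to 3. It called 1 in the 39-against-12-week interaction, where leaving out 1 library gave 0 to 1. Over all genes at E18.5, edgeR called 439 higher and 452 lower, DESeq2 933 and 991, and the replicate block 2 and 1. The counts were 0 and 1 against 184 and 472 with DESeq2 at 12 weeks, and 10 and 35 against 583 and 646 at 39 weeks. Equal replicate numbers did not pair the libraries (r of deviations from −0.357 to 0.536), and the block changed no other call. In the simulated tables unchanged genes made up 16.15% of DESeq2 calls in E18.5 ovary, 27.9% at 12 weeks and 25.7% at 39 weeks. For edgeR these shares were 6.92%, 3.125% and 3.08%. The simulated counts were drawn with edgeR's own estimates of spread and with few changed genes. These shares therefore do not give the error rate of either tool in the real libraries. The cause of the differences between the tools in the real libraries was not tested.

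Signs changed for values near 0 and, with library totals, for larger values between cell types. With TMM factors Prdx1 was at 1.32 and Gclm at 0.86 in oocytes against PGCs, both called. Gclc was at −0.77 in cumulus cells against oocytes, also called. Sod2 at E18.5 was −0.0017 without a filter and −0.11 with the replicate block, which also gave −0.0991 for Cat and −0.10 for Prdx1 in 12-week ovary. In PGCs Sod2 was −0.0018 with DESeq2's size factors, −0.0017 with DESeq2 and −0.0036 with the replicate block, Gclc 0.015 without a filter and 0.0021 with the stricter one, and Prdx1 0.010 with the replicate block. With single oocytes as replicates Gpx4 was 0.052 and Prdx3 0.017, and without the low-marker oocytes, left out after seeing the data, Sod1 was −0.049. Without the library set Txnrd1 in cumulus cells was 0.022. Library totals, added after seeing the data, gave −0.28 for Prdx1, −0.83 for Gclm and −1.43 for Txnrd1 in oocytes against PGCs, where the TMM call of Gclm was also lost without PGC Natural replicate 3 or 4 or oocyte set 35_1, and 0.011 for Gclc in cumulus cells against oocytes, which a donor set block also left at an adjusted p of 0.127 (edgeR).

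Leaving out 1 replicate at a time also moved these across 0. At E18.5 the ranges were −0.077 to 0.080 for Sod2 and −0.10 to 0.088 for Txnrd1. In 12-week ovary they were −0.11 to 0.23 for Cat, −0.18 to 0.042 for Gpx4, −0.077 to 0.15 for Prdx1 and −0.17 to 0.062 for Gclc, and in 39-week ovary −0.21 to 0.023 for Sod2. In PGCs they were −0.56 to 0.079 for Sod1, −0.18 to 0.12 for Sod2, −0.18 to 0.034 for Cat, −0.47 to 0.10 for Prdx1, −0.40 to 0.14 for Prdx3, −0.11 to 0.095 for Gclc and −0.072 to 0.29 for Gclm. In oocytes they were −0.039 to 0.24 for Sod1, −0.26 to 0.29 for Gpx4, −0.36 to 0.082 for Prdx3, −0.18 to 0.34 for Gclc and −0.26 to 0.035 for Txnrd1. In cumulus cells they were −0.11 to 0.20 for Gpx1, −0.052 to 0.11 for Prdx1, −0.18 to 0.095 for Prdx3 and −0.15 to 0.20 for Txnrd1, and for oocytes against PGCs −0.045 to 0.65 for Txnrd1. At the depth of single oocytes Cat had no counts in 30 of 76, Gpx4 in 12, and Prdx3 and Gclc in 6 each.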
